A study of Glycine max with 2 samples.

Results

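In soybean, 3 genes of the heat shock system were compared between a salt-treated and a mock-treated RNA pool: HSF-08, a heat shock transcription factor gene, HSP22.3, a small heat shock protein gene, and HSP90-1, an HSP90 chaperone gene. They were taken as all soybean probe sets whose only gene symbol in the array's annotation was one of these names, which gave 10 probe sets out of 37593 soybean probe sets, for 3 of the 6031 genes that the annotation names singly. A probe set is the group of short oligonucleotides on the array that together measure a transcript. HSF-08 had 2 probe sets, HSP22.3 had 1 and HSP90-1 had 7. The genes were picked with their salinity and mock signals known, so their ratios below are a description.

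The salinity group was a pool of RNA from seedlings of Glycine max cultivar Williams 82 given 150 mM NaCl at an age of 14 days, and the mock group was the matching pool from seedlings given water without salt. All seedlings grew in vermiculite at 25 °C with 16 h of light. Each pool combined 0.5 µg of RNA per time point, listed as 1, 3, 6, 12 and 24 h in the treatment protocol and with 0 h as well in the design text. Each pool went onto 1 Affymetrix Soybean Genome Array, so there is no replicate, no spread between plants and no test, and the time of any difference cannot be read. The labels do not name the organ, and a change in the makeup of the tissue cannot be told apart from a change in RNA per cell.

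In plants, as in other eukaryotes, heat shock factors are DNA-binding proteins, many of which switch on heat shock protein genes when proteins unfold. Small heat shock proteins bind unfolding proteins and keep them from clumping, and they are scarce in most unstressed vegetative tissue. HSP90 is abundant without stress, where it helps kinases, receptors and other client proteins to fold and also holds heat shock factors inactive. Plants have large families of heat shock factors, and several small heat shock proteins also accumulate in drying seeds.

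HSF-08 and HSP22.3 were far brighter in the salinity pool than in the mock pool, and HSP90-1 was bright in both and differed little. The plot of the signals of all 10 probe sets shows these 3 patterns. The values are MAS5 signals, the array maker's summary of a probe set's brightness, on a log2 scale, so a difference of 1 is a 2-fold change. A signal was called above background when it passed the 95th percentile of the probe sets for other organisms on the same array, 4.88 (log2) for the salinity pool and 4.94 for the mock pool. Signals below that bound were raised to it, and a ratio with 1 such signal is a lower limit. Of the 10 probe sets, 9 were above the bound on both arrays and 1 in the mock pool alone.

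**Figure D1:**
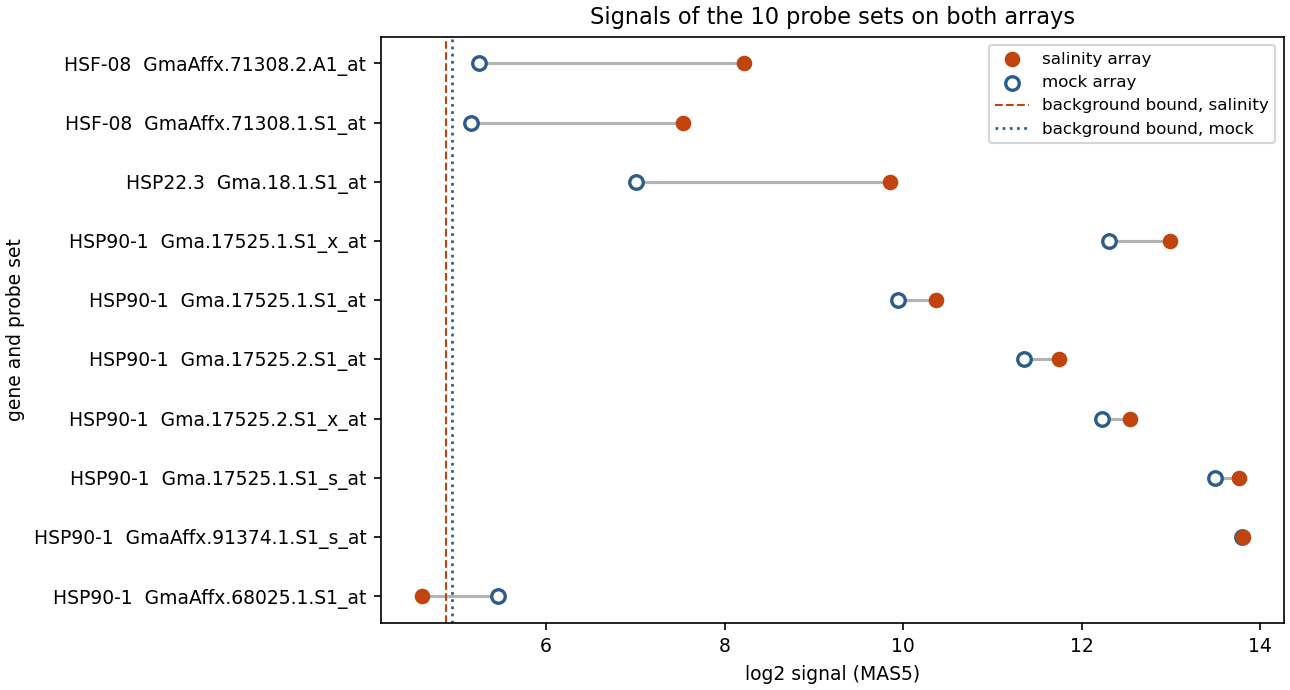
Log2 MAS5 signal (horizontal axis) of the 10 probe sets of HSF-08, HSP22.3 and HSP90-1 (vertical axis) in the salinity pool (filled) and the mock pool (open), 1 array each, with the background bounds as vertical lines. Both HSF-08 sets lie just right of the bound in the mock pool, and the brightest HSP90-1 set is at 13.81 in the salinity pool and 13.80 in the mock pool.

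HSF-08 reached 8.21 (log2 signal) in the salinity pool and 5.24 in the mock pool by its brighter probe set, GmaAffx.71308.2.A1_at. On the unlogged scale that was a signal of 297.03 in the salinity pool and 37.9 in the mock pool, against unlogged bounds of 29.4 for the salinity pool and 30.7 for the mock pool. The log2 ratio of salinity to mock was 2.97, a 7.84-fold difference. The gene was near background without salt and clearly measured with it.

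The other HSF-08 probe set, GmaAffx.71308.1.S1_at, had log2 signals of 7.54 in the salinity pool and 5.16 in the mock pool, a log2 ratio of 2.38 or 5.19-fold. Both sets thus pointed the same way, and both mock signals lay close to the bound, by 0.30 for the brighter set and 0.22 for the other on the log2 scale. Their log2 ratios differed by 0.60. Among the 1618 genes whose 2 brightest probe sets were above the bound on both arrays, 12.2% differed by as much, and the median absolute difference was 0.19. With mock signals this low the size of the fold is poorly fixed. For the brighter set it was at least 5.69-fold with the bound set at the 99th percentile. The value of the other set at that bound is not given here.

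HSF-08 stood high among all measured features, but it was picked with its ratio known, so the places below only describe it. Of the 33784 soybean probe sets that passed background in at least 1 pool, 0.278% had a log2 ratio as high as its brighter set and 0.610% as high as its other set. Since its mock signals were low, the ratios were also set beside those of sets with a mock log2 signal within 0.5 of its own. Among 2168 such sets, 25 reached the ratio of the brighter set. Among 2012 such sets, 44 reached that of the other. Sets under the mock bound entered this comparison only if they passed background in the salinity pool. By its brighter set HSF-08 was 28th from the top of 5892 measured genes. At the rule of at least 2-fold, 4.33% of measured soybean probe sets were higher in the salinity pool, 5.36% were lower, and 5.02% of measured genes were higher and 5.67% lower.

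**Figure D2:**
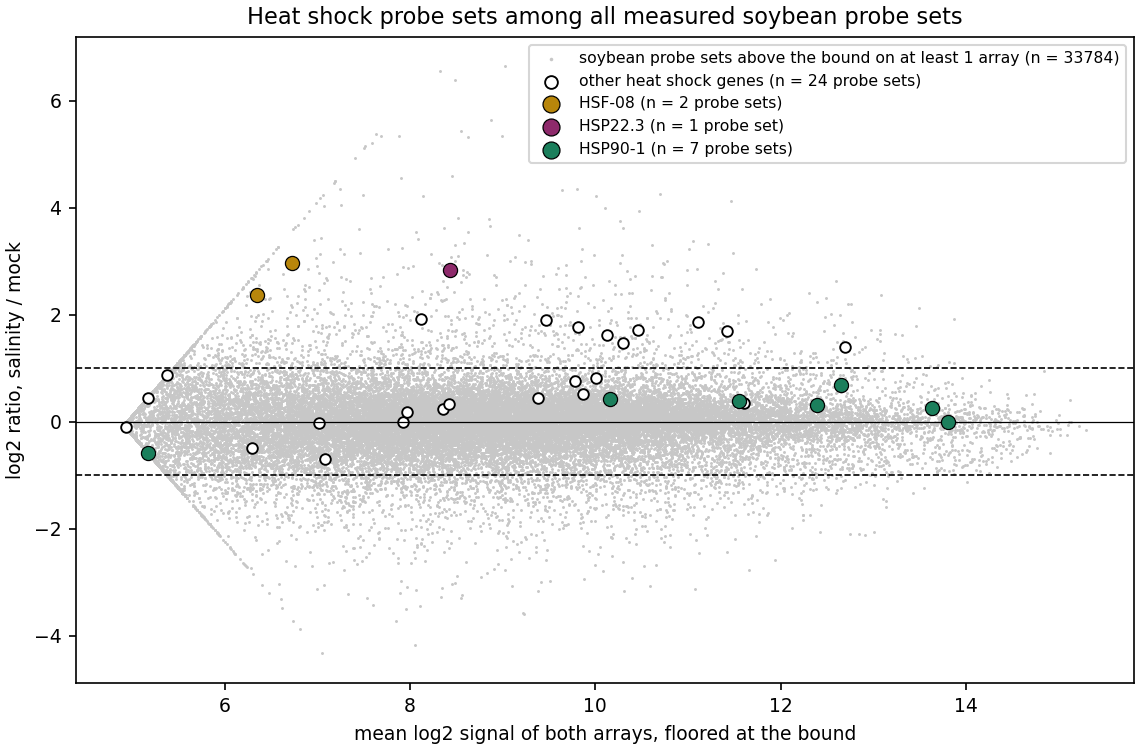
Log2 ratio of salinity to mock (vertical axis) against the mean log2 signal of both arrays floored at the bound (horizontal axis) for 33784 soybean probe sets (grey), with the 3 genes coloured and 24 probe sets of other heat shock genes as open circles. Dashed lines mark 2-fold; both HSF-08 sets and the HSP22.3 set lie above the upper line, and all 7 HSP90-1 sets lie between the lines.

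The other heat shock factor genes had smaller ratios than HSF-08, which was picked with its ratio known. The annotation tables named 10 of them with a probe set, each passing background in at least 1 pool; of these 1 was at least 2-fold higher, with none lower by as much, against 5.02% and 5.67% of all measured genes. That gene was HSF-01, with log2 signals of 13.40 in the salinity pool and 11.99 in the mock pool by its brighter set, a log2 ratio of 1.40 or 2.64-fold. Its second set gave 11.78 in the salinity pool and 11.43 in the mock pool, a log2 ratio of 0.35, so the probe sets of HSF-01 disagreed in size. The mean of the sets, 0.88, was under 2-fold.

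Below HSF-01 the ratios ran down in small steps. HSF-26 had log2 signals of 10.42 in the salinity pool and 9.59 in the mock pool, a log2 ratio of 0.83. HSF-03 had 10.17 in the salinity pool and 9.40 in the mock pool, a log2 ratio of 0.77. Neither reached 2-fold. HSF-35, HSF-15, HSF-33 and HSF-14 had log2 ratios of 0.51, 0.44, 0.34 and 0.25 by their brighter sets. HSF-33 and HSF-14 each had a dimmer set below 0, at a log2 ratio of -0.01 and -0.49. HSF-10 was at a log2 signal of 7.92 on both arrays. LOC100782841, whose RefSeq synonym is HSF, was the lowest of the factor genes that passed background in both pools. It had log2 signals of 6.73 in the salinity pool and 7.43 in the mock pool, a log2 ratio of -0.69 or 1.62-fold lower. HSF-30 was at background, with a log2 signal of 4.51 in the salinity pool and 4.98 in the mock pool, just above the bound there. Its difference is thus only a lower limit, and HSF-30 cannot be ranked. The other HSF-30 set was below the bound on both arrays. The median log2 ratio of these 10 genes was 0.39, and that of all measured genes was -0.0033.

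HSP22.3 reached 9.85 (log2 signal) in the salinity pool and 7.01 in the mock pool from its only probe set, Gma.18.1.S1_at. Unlogged, the signal was 924.6 in the salinity pool and 128.9 in the mock pool. The log2 ratio was 2.84, a 7.17-fold difference. Unlike HSF-08, HSP22.3 was well above background without salt, by 2.07 on the log2 scale, and its ratio does not rest on a signal at the bound. No second probe set checks it, and its ID carries no mark for cross-hybridisation. Of all measured soybean probe sets, 0.337% had as high a log2 ratio, and of 4251 sets with a like mock signal 21 did. The gene was 33rd from the top of 5892, a place that only describes it, since it was picked with its ratio known.

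The annotation named 3 other small heat shock protein genes with probe sets, and 2 of these were at least 2-fold higher, beside 5.02% of all measured genes. HSP17.5-E had log2 signals of 10.69 in the salinity pool and 8.92 in the mock pool, a log2 ratio of 1.77 or 3.42-fold. Its second set, of the kind shared by several transcripts, gave a log2 ratio of 1.92. HSP17.5-E therefore gave close values from both sets, with the salinity signal higher in each.

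HSP23.9 had log2 signals of 12.27 in the salinity pool and 10.57 in the mock pool by its brightest set, a log2 ratio of 1.70 or 3.25-fold. The other sets that passed background in both pools gave log2 ratios of 1.87 and 1.90. The dimmest set passed background in the salinity pool alone, with a log2 ratio of at least 0.45. All 4 HSP23.9 sets were thus higher in the salinity pool. HSP22.5 had a log2 signal of 5.81 in the salinity pool and lay below the bound in the mock pool, listed there at 0.53, so it was at least 1.83-fold higher and the size is unknown. HSP22.3 had the highest ratio of the 4 small heat shock protein genes, except that HSP22.5 has only a lower limit and cannot be ranked.

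HSP90-1 had log2 signals of 13.81 in the salinity pool and 13.80 in the mock pool by its brightest probe set, GmaAffx.91374.1.S1_s_at. Unlogged, that was 14317 in the salinity pool and 14280 in the mock pool. The log2 ratio was 0.0037. This set ends in _s_at, a suffix for probes shared by several transcripts, so its signal may include close copies of the gene, and its part in the ratio was not tested.

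Most other HSP90-1 sets gave somewhat higher ratios. The 5 sets from one transcript cluster, Gma.17525, had log2 signals of 10.37 to 13.76 in the salinity pool and 9.95 to 13.50 in the mock pool, and all 5 were higher in the salinity pool. Their log2 ratios ran from 0.26, for the set shared by several transcripts, to 0.69, for Gma.17525.1.S1_x_at. That set had 13.00 in the salinity pool and 12.31 in the mock pool and differed 1.61-fold, and its suffix marks probes that may bind other transcripts. The unmarked sets of the cluster, Gma.17525.1.S1_at and Gma.17525.2.S1_at, had log2 ratios of 0.42 and 0.40. No HSP90-1 set reached 2-fold in either direction.

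The last HSP90-1 set, GmaAffx.68025.1.S1_at, went the other way at the edge of background. It had a log2 signal of 4.61 in the salinity pool, below the bound, and 5.47 in the mock pool, a log2 ratio of -0.58 with the floor, which is a lower limit of the difference. Over all 7 sets the median log2 ratio was 0.31, or 1.24-fold higher, and 6 of 7 were above 0. Over the 6 sets that passed background in both pools, the ratios spanned 0.68. Of the 484 genes with at least 3 such sets, 26.7% spanned as much, and the median span was 0.45. The value for HSP90-1 therefore depends on the probe set, within a range from about no difference to 1.61-fold higher among the bright sets.

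HSP90A1, the other HSP90 gene named on the array, had higher ratios. Its brightest set had log2 signals of 11.32 in the salinity pool and 9.61 in the mock pool, a log2 ratio of 1.71 or 3.27-fold. Its other sets gave 1.63 and 1.47. All 3 HSP90A1 sets were thus at least 2-fold higher in the salinity pool, and none of the 7 HSP90-1 sets was. Whether the genes differ in response was not tested, since there is 1 array for each pool. HOP1, for a co-chaperone that links HSP70 to HSP90, had log2 signals of 8.06 in the salinity pool and 7.87 in the mock pool, a log2 ratio of 0.19. BAG6A, named for the BAG co-chaperones of HSP70, was below the bound on both arrays.

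**Figure D3:**
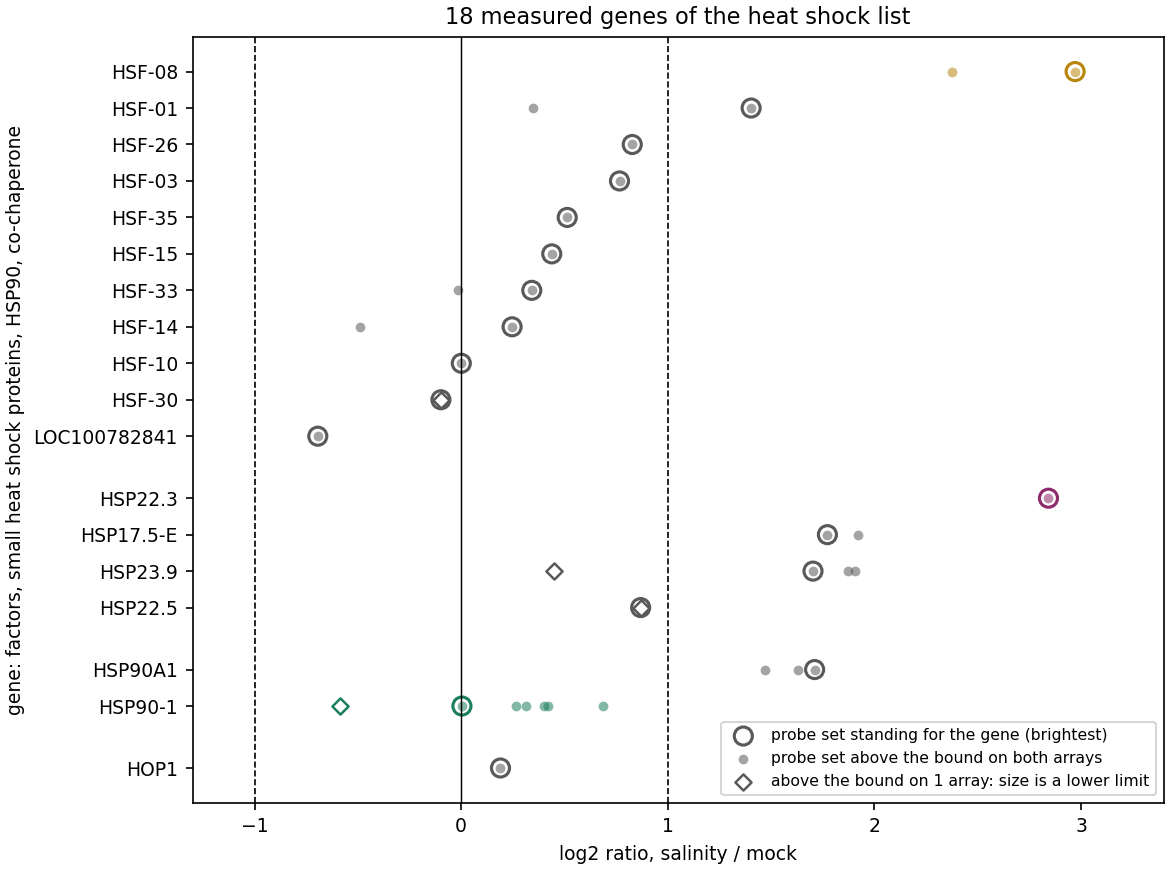
Log2 ratio of salinity to mock (horizontal axis) for every measured probe set of the 18 measured heat shock genes (vertical axis), grouped from the top as factors, small heat shock proteins, HSP90 and co-chaperone, with 2-fold as dashed lines. Rings mark the brightest set of a gene. HSF-08, picked with its ratios known, lies at 2.97 and 2.38, and the HSP90-1 sets spread from -0.58 to 0.69.

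The wider list of heat shock genes held every gene whose symbol or synonym begins with a heat shock, DnaJ, ClpB, HOP1 or BAG name. RefSeq gives 60 such genes, and 19 of them had a probe set of their own, 36 sets in all. Of the 19 genes, 18 passed background in at least 1 pool, 16 in both pools. Among the 16, 15 had a log2 ratio above 0 and 6 were at least 2-fold higher, counts that include the 3 genes picked with their ratios known. Without those 3, 12 of 13 were above 0 and 4 at least 2-fold higher. Both counts above 0 take in HSF-10 at 0.0006, HOP1 at 0.19 and HSF-14 at 0.25, and the 15 also HSP90-1 at 0.0037. These ratios were below 0.295, the SD of a ratio from pairs of probe sets of 1 gene. Of all 5769 genes that passed background in both pools, 49.5% were above 0 and 4.71% at least 2-fold higher. None of the list was at least 2-fold lower, beside 5.56% of those genes. Without HSF-08, HSP22.3 and HSP90-1 the list had 15 genes measured in at least 1 pool, and those at least 2-fold higher were HSF-01, HSP17.5-E, HSP23.9 and HSP90A1. The median log2 ratio was 0.64 over the 18 measured genes and 0.51 without the 3 genes, with HSP22.5 and HSF-30 at their lower limits in both. The genes named HSP70, HSP40.1 and DNAJ, of other chaperone classes, had no probe set named singly and are not analysed here.

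The genes nearest to each of the 3 in the plane of salinity and mock log2 signal were taken from 915 genes whose symbol is not a locus number and which passed background in both pools. With 2 arrays this measures only a like pair of signals. Nearest to HSF-08 were PDR12, an ABC transporter gene (8.45 salinity, 5.54 mock), PM1, a seed maturation gene (8.43 salinity, 5.75 mock), and BFT, of the FT/TFL1 family (8.76 salinity, 5.32 mock). Nearest to HSP22.3 were MYB124 (9.66 salinity, 7.14 mock), the alternative oxidase gene AOX1 (10.01 salinity, 7.26 mock) and PARP3 (9.39 salinity, 7.49 mock). Nearest to HSP90-1 were the ribosomal protein gene RPL2 (13.75 salinity, 13.83 mock), GF14D, of the 14-3-3 proteins (13.75 salinity, 13.86 mock), and GAPDH, of glycolysis (13.81 salinity, 13.70 mock). The choice by signal fixes that these genes resemble the 3 in level and ratio.

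Some measures of the whole arrays moved with the groups. Of 18 measured soybean ribosomal RNA probe sets taken by their IDs as sense strand, 17 were higher in the salinity pool, with a median log2 ratio of 1.31. All 24 sets taken as antisense were measured, and 21 were higher in the salinity pool, with a median of 0.52. The part of these sets in the heat shock ratios was not tested. Small heat shock proteins are also made in seeds, and 4 of the 10 genes on the seed storage list passed background in the salinity pool and 1 in the mock pool. The summed signal of the 10 genes was 291.3 in the salinity pool and 158.2 in the mock pool. Both sums take in genes below the bound. Neither exceeds what 10 signals at the unlogged bounds, 29.4 (salinity) and 30.7 (mock), would give. The sums therefore cannot show whether the genes above background rose. Over the 4 measured genes of the 10 the median log2 ratio was 0.53, with lower limits for those above background in the salinity pool alone. Of the 4, 1 was at least 2-fold higher and 0 were lower by as much, beside 5.02% and 5.67% of all measured genes. The prefix used for that list also caught SBPRP, a proline-rich protein gene, which was left out of the sum; with it the sums were 3990 in the salinity pool and 16135 in the mock pool. All 7 photosynthesis genes passed background in both pools, with a median log2 ratio of -0.32. Of these, 0 were at least 2-fold higher and 1 was lower by as much. Of 7 nodule genes 5 passed in both pools, with a median of 0.37. These went both ways, with 1 at least 2-fold higher and 1 lower by as much. No gene of these lists was at a signal of 0, and their part in the heat shock ratios was not tested. The ratios of the 3 genes were also computed under other scalings, bounds and choices of probe set, as the plot by setting shows, and HSF-08 and HSP22.3 were at least 2-fold higher and HSP90-1 under 2-fold in each.

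**Figure D4:**
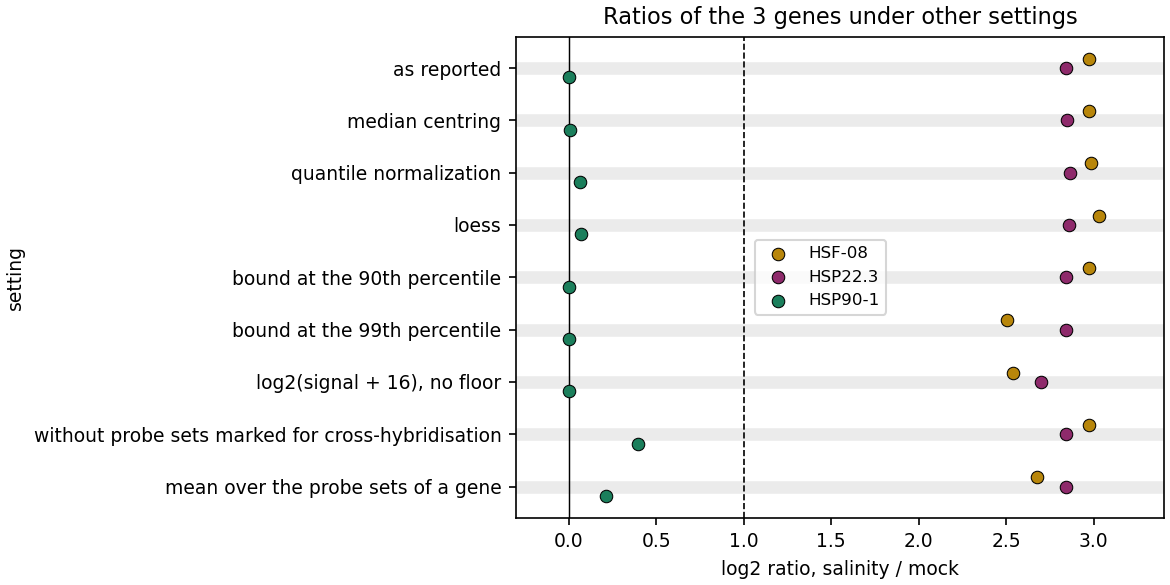
Log2 ratio of salinity to mock (horizontal axis) of HSF-08, HSP22.3 and HSP90-1 under the reported setting and 8 alternatives (vertical axis), with 2-fold as a dashed line. HSF-08 stayed between 2.51 and 3.03, HSP22.3 between 2.70 and 2.87, and HSP90-1 between 0.0037 and 0.40.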

How the data were processed

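The 2 Affymetrix arrays, 1 for the salinity pool and 1 for the mock pool, were grouped by their labels. The deposited values are log2 signals, which the authors made with MAS5 per the submitters' processing notes; its version, and any later step, is not given in the sources used here. This method scales each array as a whole, and the unlogged signals had a 2% trimmed mean of 498.8 (salinity) and 498.5 (mock). The values were used with no further scaling. Signals under the bound of their array (95th percentile of 15820 Phytophthora sojae and 7530 soybean cyst nematode probe sets) were raised to it. The number of arrays limits the precision.

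Genes came from the platform's annotation, in which 8677 soybean probe sets name 1 gene. Symbols were updated through the gene identifier to RefSeq, assembly Glycine_max_v4.0, where 6010 of 6031 genes matched; no coordinates are given. The probe set of highest mean signal stood for a gene. The genes, lists, naming rule and alternatives were chosen with earlier results of these data known. Named were all probe sets of the 3 genes, every gene of the heat shock list, and the 3 genes nearest to each in signal. Planned lists by protein similarity and a planned search of promoters needed sequences, which were not used here. Ratios and scalings were tested on simulated data. The planted changes lay only in probe sets far above the bound and were smaller than those of HSF-08 and HSP22.3. Ratios near the bound were therefore not checked this way. Python 3.11.15, numpy 2.4.6, pandas 2.3.3 and statsmodels 0.14.6 (loess span 0.3) were used. Alternatives were bounds at the 90th or the 99th percentile, loess, quantile normalization, median centring, leaving out marked probe sets, log2(signal + 16), averaging the probe sets of a gene and, chosen after seeing the data, the list without the 3 genes.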

Additional observations from a re-analysis of the deposited data

How the results depend on the processing

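A ratio was counted as moved when it differed by over 0.295 (log2) from the reported one, the SD of a ratio taken from pairs of probe sets of 1 gene, which holds no error between plants, pools or arrays. The log2 ratio of HSF-08, 2.97 as reported, was at least 2.51 with the bound at the 99th percentile, where its mock signal fell below the bound, 2.54 as log2(signal + 16) and 2.67 as the mean over its probe sets. It stayed at least 2-fold higher under all 8 alternatives, as did HSP22.3. That of HSP90-1, 0.0037 as reported, was 0.40 without marked probe sets, where another probe set stands for the gene, and stayed under 2-fold under all 8. The median of the heat shock list lay between 0.51 and 0.65. Among the 119 values of the other 15 genes of the list under alternatives, 6 moved, for 4 genes (HSF-01, HSF-14, HSF-30 and HSP22.5). HSP22.5, at background in the mock pool, had a log2 ratio of at least 0.10 with the bound at the 99th percentile, at least 1.25 with it at the 90th and 2.05 as log2(signal + 16), against at least 0.87 as reported. None that was at least 2-fold as reported changed sign. As the mean over its probe sets, HSF-14 went from 0.25 to -0.12, and HSF-01 from 1.40 to 0.88, under 2-fold. The lists by protein similarity and their alternatives were not run. No paired analysis was possible because each group has 1 array.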
